A study of Mus musculus with 6 samples.

Results

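The genes described here code for molecular chaperones, the proteins that fold other proteins and keep them from aggregating. They are the 76 gene symbols, of 20279 listed in the 6 count matrices, that name HSP70-type (HSPA and HSPH), HSP90, small (HSPB) and mitochondrial (HSPD and HSPE) heat shock proteins, J-domain proteins of the types DNAJA, DNAJB and DNAJC, and subunits of the CCT chaperonin. The symbols were matched by name. There were 26 DNAJC, 13 DNAJB, 4 DNAJA, 12 HSPA, 1 HSPH, 3 HSP90, 6 HSPB, 3 HSPD or HSPE and 8 CCT genes. In the cells kept, 62 of the 76 had at least 1 count in every library.

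HSP70 proteins bind exposed hydrophobic stretches of unfolded chains and release them in a cycle driven by ATP. J-domain proteins bring them substrates and start ATP hydrolysis, HSPH and HSPA4 proteins exchange the nucleotide, HSP90 finishes the folding of kinases and receptors, and CCT is a ring that folds actin and tubulin in its cavity. Many of these genes are switched on by heat shock factor 1 when proteins unfold, and a separate set with endoplasmic reticulum proteins serves secretion, which in the spleen is largely the work of antibody-secreting plasma cells.

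The data were 6 single-cell libraries of mouse cells, 2 for each of 3 protocols, all labelled as spleen of 10-week-old female mice. All were 10x Genomics libraries left unfragmented and read as long Nanopore reads. The 3′ group came from the 3′ kit, which primes and tags the tail end of the transcript, and the standard 5′ group from the 5′ kit, which tags the cap end. The modified 5′ group used the same 5′ kit with 1 µl of 10 mM dNTP added at reverse transcription and again at amplification. Its reverse transcription step was lengthened from 45 min to 2 h, and extension during amplification from 1 min to 3 min. The series text names C57BL/6 mice. For replicate 1 of each protocol the labels describe a strained spleen and lysis of red cells. For replicate 2 they describe islets of the pancreas and removal of insulin cDNA, although the tissue label is spleen, and pancreas marker genes summed to no more than 50.9 CPM (counts in every 1000000 of the library) in any library. The labels do not say that replicates 1 and 2 are separate animals, so p-values measure the spread between these libraries, which may be technical.

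Library totals ran from 723341 to 2627253 counts, and 15578 cells with at least 200 genes were kept, with a median of 332 to 606 counts per cell. Standard 5′ replicate 1 stood apart as the shallowest library: only 34.0% of its barcodes, 861 cells, passed. Haemoglobin genes took 3.92% to 6.84% of the kept counts in the replicate 1 libraries and 0.0391% to 0.128% in the replicate 2 libraries. Pairs of libraries shared between 0 and 16 barcodes. Values below are CPM of the counts summed over kept cells, scaled by trimmed mean of M-values (TMM) factors. They are not divided by transcript length, so levels are set side by side between libraries and not between genes. In such sums fewer cells of a type and less RNA per cell cannot be told apart.

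The chaperone genes together held 0.85% to 1.35% of all counts. Their summed level was 10472 and 10027 CPM in 3′ replicates 1 and 2, 15178 and 13533 CPM in the standard 5′ pair, and 9406 and 13388 CPM in modified 5′. Standard 5′ was thus above 3′ in both replicates, and modified 5′ replicate 1 was the lowest of the 6 while modified 5′ replicate 2 lay beside standard 5′ replicate 2. The HSP90 sum followed the same order, with 3544 and 3324 CPM in the 3′ pair, 5306 and 4498 CPM in the standard 5′ pair, and 2985 and 4458 CPM in modified 5′. The HSPA sum was 1884 and 1856 CPM in the 3′ pair, 3484 and 2918 CPM in the standard 5′ pair, and 1610 and 2841 CPM in modified 5′. The DNAJA sum was 891 and 864 CPM in the 3′ pair, 1075 and 983 CPM in the standard 5′ pair, and 531 and 971 CPM in modified 5′. Other families did not follow that order throughout. The DNAJC sum was 1158 and 1195 CPM in the 3′ pair, 1398 and 1586 CPM in the standard 5′ pair, and 1591 and 1543 CPM in modified 5′, so that modified 5′ replicate 1 was the highest. The CCT sum in modified 5′ replicate 1, 1398 CPM, lay above that of 3′ replicate 1, 1348 CPM, and the DNAJB sum was 606 CPM in 3′ replicate 1 and 578 CPM in standard 5′ replicate 1. No test was made of these sums.

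Several genes best known for their response to heat were close to absent. Hspa1a, the classical inducible HSP70, had 4.48, 6.07, 6.14, 7.91, 0.922 and 4.57 CPM in the order 3′ replicates 1 and 2, standard 5′ replicates 1 and 2 and modified 5′ replicates 1 and 2, from 1 to 18 counts. Hspa1b, its near-identical copy, had 4, 11, 1, 6, 0 and 1 counts in the same order, and reads of the pair may have been split between them. Hspb1, the inducible small heat shock protein, had at most 3 counts in any library. The 16 members too low to be tested between libraries each averaged 4.43 CPM or less, among them Cct6b, Dnajb3, Dnajb7, Dnajb8, Dnajb13, Dnajc6, Dnajc22, Dnajc28, Hspa1b, Hspa2, Hspa12b, Hspb1, Hspb3, Hspb7 and Hspb9.

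The comparison of standard 5′ with 3′ libraries asks whether the end of the transcript that is tagged changes the level read for a gene. Of the 60 members tested, 5 were higher and 2 were lower in standard 5′ at an adjusted p of 0.05, against a background of 23.3% of 11546 genes called (12.5% higher and 10.8% lower), in edgeR's quasi-likelihood test with Benjamini-Hochberg adjustment over all genes. A fit with the replicate number as a block called 14 higher and 4 lower, against 35.7% of all genes. The share of members called was thus below the background in the fit without the block and close to it with the block. The members' median log2 fold change was 0.25, beside -0.01 over all genes tested.

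Dnajc9, a J-domain protein that binds histones H3 and H4 (chr14:20384638-20388910, minus strand, GENCODE vM21 on GRCm38), gave the largest difference of any member. It stood at 26.9 and 12.5 CPM in 3′ replicates 1 and 2, at 111 and 105 CPM in the standard 5′ pair, and at 124 and 106 CPM in modified 5′. All 4 libraries of the 5′ kit were above both 3′ libraries. Its log2 fold change was 2.48 (SE 0.32, 2 libraries a group, edgeR adjusted p = 0.0021), and the gene was called under all 13 alternatives in which it was tested. Without 3′ replicate 1 the value was 3.10, and without 3′ replicate 2 it was 2.02.

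Hspa8, the constitutive cytosolic HSP70 (chr9:40800984-40810087, plus strand), had 1166 and 1087 CPM in the 3′ pair and 2670 and 2125 CPM in the standard 5′ pair. The groups did not overlap, and the log2 fold change was 1.09 (SE 0.31, edgeR adjusted p = 0.034). The call was lost without standard 5′ replicate 1 (0.94), standard 5′ replicate 2 (1.26), 3′ replicate 1 (1.14) or 3′ replicate 2 (1.06), each value being the log2 fold change that remained. The level of Hspa8 is uncertain for a further reason: in its longest GENCODE transcript 85.3% of the 31-base words of the last 500 bases also occur in transcripts of other genes, compared with 17.9% of the first 500 bases. The genes sharing most words with it over the whole transcript, Gm15459, Gm8355 and Gm6210, are not listed in the count matrices. Where reads from such copies were counted is not given. Other such genes were not analysed here, and the part of the copies in the difference was not tested.

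The other higher members were smaller changes. Dnajc19, a subunit of the mitochondrial import motor, had 53.2 and 47.5 CPM in the 3′ pair and 86.0 and 104 CPM in the standard 5′ pair (log2 fold change 0.95, SE 0.23, edgeR adjusted p = 0.019). Cct7, a chaperonin subunit, had 147 and 172 CPM in the 3′ pair and 286 and 289 CPM in the standard 5′ pair (log2 fold change 0.85, SE 0.21, edgeR adjusted p = 0.019). Hspa14, a ribosome-bound HSP70, had 65.1 and 75.5 CPM in the 3′ pair and 114 and 111 CPM in the standard 5′ pair (log2 fold change 0.67, SE 0.20, edgeR adjusted p = 0.038). For each of these 3 genes both standard 5′ libraries were above both 3′ libraries. Here and for the other members called in this comparison, such separation was part of the naming rule. Its share over all genes was not counted. Hspa14 lost its call without any single library other than 3′ replicate 2, with log2 fold changes of 0.57 to 0.70, and 62.1% of the 31-base words in its first 500 bases are shared with the overlapping gene model Gm45902, which had 9, 12, 0, 1, 3 and 7 counts in 3′, standard 5′ and modified 5′ replicates 1 and 2. The call of Hspa14 was also lost with DESeq2, without haemoglobin genes, without the low-count filter and in B-like cells only, leaving it called under 4 of 13 alternatives. Dnajc19 lost its call without standard 5′ replicate 2, 3′ replicate 1 or 3′ replicate 2 (0.79, 1.03 and 0.89), and Cct7 without standard 5′ replicate 2 or 3′ replicate 1 (0.85 and 0.74). Both also lost it in T-like cells only (0.67 and 0.61).

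Both lower members have long transcripts. Dnajb14, a J-domain protein of the endoplasmic reticulum membrane, had 164 and 138 CPM in the 3′ pair, 52.2 and 55.9 CPM in the standard 5′ pair, and 48.9 and 67.5 CPM in modified 5′ (log2 fold change of standard 5′ against 3′ -1.46, SE 0.24, edgeR adjusted p = 0.0046). Its longest annotated transcript is 9477 bases. Hspa4l, an HSP110-type exchange factor with a longest transcript of 9479 bases, had 51.2 and 29.7 CPM in the 3′ pair and 21.5 and 12.4 CPM in the standard 5′ pair, from 7 and 22 counts in the latter (log2 fold change -1.43, SE 0.40, edgeR adjusted p = 0.030). Both 3′ libraries were above both standard 5′ libraries for each gene. Leaving out standard 5′ replicate 2 ended both calls (-1.51 and -0.88), and leaving out 3′ replicate 1 ended that of Hspa4l (-1.01). The call of Hspa4l was also lost with DESeq2, with all barcodes and in B-like cells only, and was kept under 8 of 13 alternatives. Across the 47 members averaging at least 20 CPM, the log2 fold change had a Pearson correlation of -0.53 and a Spearman correlation of -0.37 with the length of the longest transcript. That is a description across genes, which are not independent and share the same 4 libraries.

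**Figure D1:**
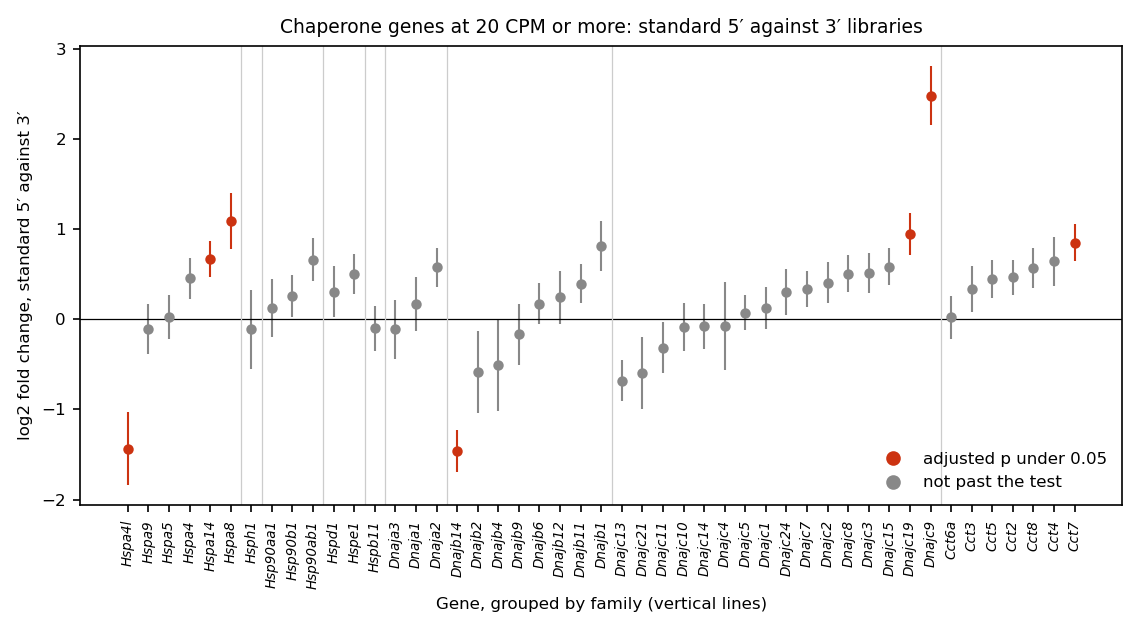
Log2 fold change of standard 5′ against 3′ libraries (y axis, points, with bars of 1 standard error, 2 libraries a group) for the members averaging at least 20 CPM, grouped by family on the x axis. Red points passed an adjusted p of 0.05: Dnajc9 lies highest at 2.48, and Dnajb14 and Hspa4l lie lowest at -1.46 and -1.43. The CCT genes matched by name, a set without Tcp1, sit at or above 0.

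By family, Cct7 was the only CCT gene matched by name to pass without the block. Tcp1, a further subunit of the ring that the name rule missed, was followed on the co-chaperone list and was lower. It had 177 and 193 CPM in the 3′ pair and 104 and 85.3 CPM in the standard 5′ pair (log2 fold change -0.99, SE 0.21, edgeR adjusted p = 0.012). Cct2 had 215 and 227 CPM in the 3′ pair and 304 and 306 CPM in the standard 5′ pair (log2 fold change 0.46, SE 0.19, edgeR adjusted p = 0.11), and Cct4 had 181 and 224 CPM against 286 and 344 CPM (0.64, SE 0.27, edgeR adjusted p = 0.11). Cct6a showed no such difference in value, with 195 and 194 CPM in the 3′ pair and 215 and 183 CPM in the standard 5′ pair (0.02, SE 0.24). Cct3 had 180.0 and 175 CPM in the 3′ pair, 224 and 225 CPM in the standard 5′ pair and 125 and 211 CPM in the modified 5′ pair, Cct5 232 and 256 CPM in the 3′ pair, 341 and 325 CPM in the standard 5′ pair and 253 and 326 CPM in the modified 5′ pair and Cct8 197 and 230.3 CPM in the 3′ pair, 344 and 293 CPM in the standard 5′ pair and 207 and 276 CPM in the modified 5′ pair. With the replicate block, Cct4 and Cct8 passed beside Cct7. The cytosolic Hsp90ab1, with 2338 and 2155 CPM in the 3′ pair and 3819 and 3289 CPM in the standard 5′ pair, and the HSP70 partner Dnajb1, with 111 and 89.4 CPM against 200 and 157 CPM, also passed with the block (edgeR adjusted p = 0.0099 and 0.0070, against 0.067 and 0.057 without it). Of the 9 members listed for the endoplasmic reticulum (Hspa5, Hspa13, Hsp90b1, Dnajb9, Dnajb11, Dnajc1, Dnajc3, Dnajc10 and Dnajc25, a list without Dnajb14), none passed without the block and 1 was higher with it. Over all genes 12.5% were higher and 10.8% lower without the block, and 19.3% and 16.5% with it. Hspa5, the HSP70 of the endoplasmic reticulum (BiP), had 408 and 412 CPM in the 3′ pair and 452 and 387 CPM in the standard 5′ pair (0.03, SE 0.24). Hsp90b1, its HSP90, had 385 and 562 CPM in the 3′ pair, 565 and 570.3 CPM in the standard 5′ pair and 511 and 638 CPM in the modified 5′ pair. Of the J-domain partners of Hspa5, Dnajb11 had 78.6 and 102 CPM in the 3′ pair, 117 and 121 CPM in the standard 5′ pair and 109.8 and 113 CPM in the modified 5′ pair, and Dnajc3 had 103 and 113 CPM in the 3′ pair, 135 and 169 CPM in the standard 5′ pair and 134 and 169 CPM in the modified 5′ pair. Dnajc3 was the member that passed with the block (edgeR adjusted p = 0.049). Of the 8 mitochondrial members tested, 1 was higher without the block, and 3 were higher and 1 lower with it. The shares over all genes are those given above for the endoplasmic reticulum list. Hspa9, the mitochondrial HSP70, had 86.0 and 111 CPM in the 3′ pair, 76.8 and 101 CPM in the standard 5′ pair and 70.1 and 114 CPM in the modified 5′ pair, with overlapping groups. Among cytosolic members outside these lists, Hspa4 had 86.5 and 109.9 CPM in the 3′ pair, 114 and 150.2 CPM in the standard 5′ pair and 159.6 and 156 CPM in the modified 5′ pair, Dnajb6, which holds back aggregation, had 79.6 and 84.0 CPM in the 3′ pair, 73.7 and 104 CPM in the standard 5′ pair and 67.3 and 86.8 CPM in the modified 5′ pair, and Dnajc7 had 199 and 205 CPM in the 3′ pair, 237 and 272 CPM in the standard 5′ pair and 270.2 and 288 CPM in the modified 5′ pair. None of these 3 passed in either fit.

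The modified 5′ libraries were compared with the standard 5′ ones to see what added dNTP and longer extension change. No member passed (0 of 60), and no gene of all 11546 did (0% called), in edgeR's test at an adjusted p of 0.05. At an unadjusted p of 0.05, 1 member and 459 genes passed, and DESeq2 called 0 members. With the replicate block 21 genes (0.182%) and 0 members were called. The members' log2 fold changes ran from -1.24 to 1.11 with a median of -0.09. This miss does not show that the protocols read these genes alike.

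Modified 5′ replicate 1 read low for several heat-inducible genes. Hsph1, an HSP110 exchange factor that heat strongly induces, had 176 and 114 CPM in the 3′ pair, 194 and 89.8 CPM in the standard 5′ pair, and 40.6 and 97.0 CPM in modified 5′. Modified 5′ replicate 1 was the lowest of the 6 libraries, with 44 counts and a 95% exact Poisson interval of 29.5 to 54.5 CPM that meets the interval of no other library (counting error only). Hsp90aa1, the inducible HSP90, had 820 and 607 CPM in the 3′ pair, 922 and 638 CPM in the standard 5′ pair, and 376 and 739 CPM in modified 5′. Dnaja1, a partner of cytosolic HSP70, had 750 and 700 CPM in the 3′ pair, 863 and 771 CPM in the standard 5′ pair, and 370 and 774 CPM in modified 5′. The other 5 libraries lay between 607 and 922 CPM for Hsp90aa1 and between 700 and 863 CPM for Dnaja1, with modified 5′ replicate 1 below them in both.

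Hspd1, the mitochondrial HSP60, had 247 and 234 CPM in the 3′ pair, 353 and 248 CPM in the standard 5′ pair, and 150 and 253 CPM in modified 5′. Hspa8 had 968 and 1994 CPM in modified 5′, the former below every other library. Hsp90ab1 had 2097 and 3082 CPM in modified 5′, the former again the lowest of the 6. Dnajb1 had 89.5 and 146 CPM in modified 5′, where replicate 1 lay within the 3′ range. Hspe1, the HSP10 lid of HSP60, had 579 and 411 CPM in the 3′ pair, 744 and 660 CPM in the standard 5′ pair, and 604 and 737 CPM in modified 5′. Its value in modified 5′ replicate 1 was not the lowest of the 6. Cct2 (278 and 309 CPM) and Cct5 (253 and 326 CPM) in modified 5′ were also not the lowest of the 6. Among the libraries of the 5′ kit alone, modified 5′ replicate 1 was the lowest for Hspe1, Cct2, Cct5 and Dnajb1.

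Counted over the 10 heat-inducible members averaging at least 20 CPM, modified 5′ replicate 1 was lower than standard 5′ replicate 1 by at least 1.5-fold for 7, against 13.0% of 6843 genes at that level, and for 6 of the 37 other members. The median log2 ratio of these 10 genes was -1.19 (range -2.23 to -0.13), beside -0.09 for the other members and -0.03 for all genes. In replicate 2 the same ratio had a median of 0.01 (range -0.10 to 0.21), and 0 of the 10 were lower by 1.5-fold, against 2.69% of genes. The denominator of the replicate 1 ratio, standard 5′ replicate 1, was the shallowest library. Of the 6 libraries it read highest for Hspa8, Hsph1, Hsp90aa1, Hsp90ab1, Hspd1, Hspe1, Dnaja1, Dnajb1 and Cct5. Set against modified 5′ replicate 2, the deeper library of the same protocol, modified 5′ replicate 1 was lower by at least 1.5-fold for 6 of the 10, against 4.95% of genes. The median log2 ratio was then -0.72 (range -1.24 to -0.15), beside -0.09 for the other members and -0.02 for all genes. Modified 5′ replicate 1 was the lowest of the 6 libraries for 6 of the 10 heat-inducible members and for 14 of the 47 members at that level, against 10.8% of genes. Each of these contrasts compares 1 library with 1 library, so it describes these libraries and has no replicate check. The list was also chosen with earlier results of these data known, so its shares are no test.

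The same was read inside single cell classes. Within B-like cells the 10 genes had a median log2 ratio of modified over standard 5′ of -0.97 in replicate 1 and 0.06 in replicate 2, beside 0.11 and -0.01 over all genes. Within T-like cells the medians were -1.15 and 0.07, beside 0.08 and 0.01. In both classes the replicate 1 ratio again has standard 5′ replicate 1 as its denominator. Hsph1 was lower by 2.22 on the log2 scale in B-like cells and by 2.38 in T-like cells of replicate 1. The make-up of the replicate 1 pair differed too, with 59.4% of cells B-like and 31.9% T-like in modified 5′ and 47.5% and 40.1% in standard 5′, and the ratios within each class are those just given. Among other members that were low in modified 5′ replicate 1, Cct3 had 125 CPM against 224 CPM in standard 5′ replicate 1 and Hspa5 had 273 CPM against 452 CPM. The handling of the cells before loading is described in the same words for all 3 replicate 1 libraries, and its part in this was not tested. The deposited names of the standard and modified 5′ replicate 1 counts carry different date-like numbers. What these numbers stand for is not given, and a difference in preparation or sequencing was not tested.

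**Figure D2:**
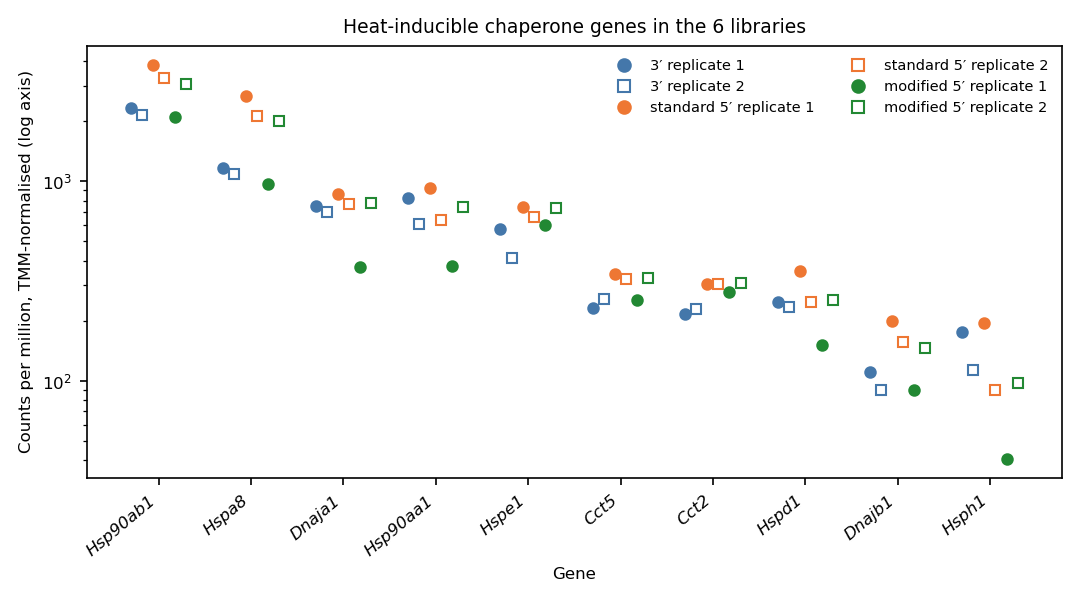
Level of the 10 heat-inducible members in CPM (log y axis) in each of the 6 libraries, with circles for replicate 1 and squares for replicate 2 and 1 colour per protocol. The filled green circle, modified 5′ replicate 1, is the lowest point for Hsph1 (40.6 CPM), Hsp90aa1 (376 CPM), Dnaja1 (370 CPM) and Hspd1 (150 CPM). Genes are not compared with each other, since values are not per length.

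**Figure D3:**
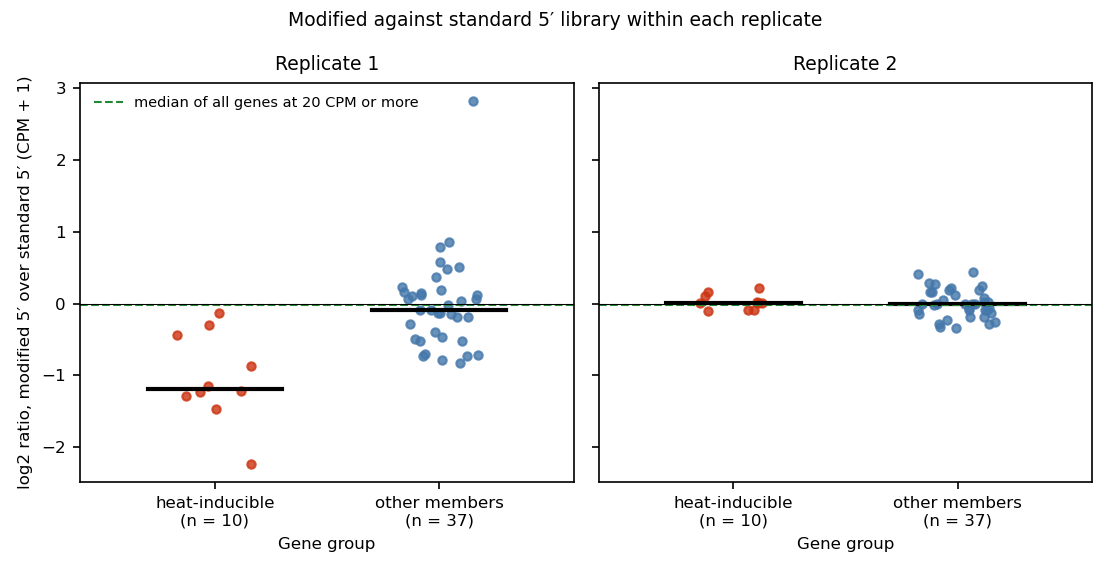
Log2 ratio of the modified over the standard 5′ library (y axis, CPM plus 1) within replicate 1 (left) and replicate 2 (right), 1 point per member at 20 CPM or more, black bars at the group medians and a dashed line at the median of all genes. In replicate 1 the heat-inducible members centre on -1.19 and the others on -0.09, and in replicate 2 both centre near 0. The point at 2.82 is Dnajc4, which rests on 1 count in standard 5′ replicate 1.

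The promoters of the members were read for a feature that the choice by name did not use. RefSeq promoter windows (250 bases before to 50 after a start, GRCm38.p6) were found for 62 of the 76 members. They were searched for the core of the heat shock element, the sequence bound by heat shock factors, written as GAANNTTC or TTCNNGAA. Both forms read the same on either strand, and they can overlap each other. At least 1 match was in a window of 17 of the 62 members (27.4%), of 9 of the 10 heat-inducible members that had a window (not the same 10 as above, as Hspa1a, Hspa1b and Hspb1 are included), and of 17.0% of 27025 genes. Counted by window, 15.1% of 32851 windows held a match. GAANNTTC alone was in 8 of those 10 heat-inducible members and in 9.04% of genes. Dnajb1 was the heat-inducible member whose windows held no match, and Hspa8, Hsp90aa1 and Hsp90ab1 had no window. The list was drawn up from known heat-inducible genes, so the share describes these promoters and is no test.

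The stretches below carry these matches in 3 promoters of genes low in modified 5′ replicate 1, followed by Cct2, which also holds a match. For Cct2, modified 5′ replicate 1 was not the lowest of the 6 libraries. All are 5′ to 3′ on the strand of the gene, capitals mark the matches, and those of single genes run from 250 bases before to 30 after the start. Hspd1 and Hspe1 are transcribed head to head, and the 215 bases between the pair of RefSeq starts that diverge (chr1:55087933-55088147, shown on the strand of Hspe1) hold 3 overlapping matches within 18 bases.
Hspd1 and Hspe1: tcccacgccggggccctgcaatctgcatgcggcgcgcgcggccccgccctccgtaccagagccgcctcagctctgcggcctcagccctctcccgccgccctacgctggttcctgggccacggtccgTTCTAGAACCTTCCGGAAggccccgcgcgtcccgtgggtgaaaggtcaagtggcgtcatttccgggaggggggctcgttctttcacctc
For Hsph1 (chr5:149636286-149636565, minus strand) there are 3 matches, 2 of which overlap downstream of the start.
Hsph1: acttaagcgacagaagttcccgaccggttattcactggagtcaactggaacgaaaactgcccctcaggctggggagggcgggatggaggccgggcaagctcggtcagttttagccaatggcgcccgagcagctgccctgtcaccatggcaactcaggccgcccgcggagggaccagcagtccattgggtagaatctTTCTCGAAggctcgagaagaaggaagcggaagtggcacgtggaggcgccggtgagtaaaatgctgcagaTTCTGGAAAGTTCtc
For Dnaja1 (chr4:40722218-40722497, plus strand) there is 1 match upstream of the start shown, and the windows of its other RefSeq starts hold none.
Dnaja1: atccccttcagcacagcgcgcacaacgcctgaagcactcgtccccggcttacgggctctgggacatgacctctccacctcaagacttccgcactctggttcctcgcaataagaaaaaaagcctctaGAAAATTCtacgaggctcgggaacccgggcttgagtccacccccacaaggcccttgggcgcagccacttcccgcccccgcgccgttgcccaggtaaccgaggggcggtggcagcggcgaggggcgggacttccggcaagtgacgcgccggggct
For Cct2 (chr10:117063346-117063625, minus strand) there is 1 match upstream of the start shown, and the window of its other RefSeq start holds none.
Cct2: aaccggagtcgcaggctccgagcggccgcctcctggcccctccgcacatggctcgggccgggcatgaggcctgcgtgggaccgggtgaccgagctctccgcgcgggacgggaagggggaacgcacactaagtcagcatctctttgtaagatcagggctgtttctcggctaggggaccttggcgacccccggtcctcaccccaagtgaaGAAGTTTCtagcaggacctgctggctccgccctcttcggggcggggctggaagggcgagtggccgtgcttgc
A match says only that these letters are present. Hspd1 and Hspe1 share the stretch between their starts. Modified 5′ replicate 1 read 150 CPM for Hspd1, the lowest of the 6 libraries. For Hspe1 it read 604 CPM, the fourth of 6 and the lowest among the libraries of the 5′ kit. A second RefSeq start of Hspd1 lies inside Hspe1, and its window holds no match. Transcripts from it overlap Hspe1 on the opposite strand, so reads there may not be told apart. Both genes also have close copies, with 55.8% and 48.1% of their 31-base words found in transcripts of other genes. Of these copies, Hspd1-ps3, Hspe1-ps2 and Hspe1-ps3 were looked up and are not listed in the count matrices. The part of the matches, the overlap and the copies in these values was not tested.

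The replicate 2 libraries were compared with the replicate 1 libraries, as the labels describe a different preparation for each. None of the 60 members passed in edgeR's test, against 3.58% of all genes. At an unadjusted p of 0.05, 5 members passed, namely Cct4, Dnajb2, Dnajb4, Dnajc9 and Hspa9, and DESeq2 called 0. The lowest adjusted p was 0.098, for Dnajb2, a neuronal-type J-domain protein with 39.8 and 16.9 CPM in the 3′ pair, 18.4 and 18.6 CPM in the standard 5′ pair, and 26.7 and 17.8 CPM in modified 5′ replicates 1 and 2. With either modified 5′ library left out, the contrast rested on the same 3′ and standard 5′ pairs, and Hsph1 was lower in replicate 2. These settings are therefore not separate checks. Leaving out either standard 5′ library likewise left the contrast to the 3′ and modified 5′ pairs. Hsph1 and Hsp90aa1 were higher in replicate 1 than in replicate 2 within 3′ and within standard 5′ but lower in replicate 1 within modified 5′, a difference between protocols that was not tested. Haemoglobin counts differ between the same groups, as given above, and their part in these values was not tested.

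The B-like and the T-like class, those with at least 344 cells in every library, were compared within libraries. Clusters were built without the chaperone genes and named from marker genes, so members did not shape the classes, although the other genes of the same cells did. Of the 51 members tested, 9 were higher and 11 lower in B-like cells, against a background of 40.3% of 9400 genes called (21.4% higher and 18.9% lower), in edgeR's test with the library as a block. The members' share was thus close to that of all genes. Sizes below are log2 fold changes of B-like against T-like cells, and means are over the 6 libraries.

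The largest difference was in Dnajc15, a J-domain protein of the mitochondrial inner membrane (chr14:77820681-77875125, minus strand). In B-like cells it had 46.3, 43.5, 51.5, 61.0, 80.6 and 85.9 CPM in 3′ replicates 1 and 2, standard 5′ replicates 1 and 2 and modified 5′ replicates 1 and 2, and in T-like cells 311, 356, 311, 421, 415 and 390 CPM. Every T-like value was above every B-like value. The log2 fold change was -2.62 (SE 0.10, edgeR adjusted p = 4.2e-46), a level 6.15-fold lower in B-like cells. Of the other mitochondrial members, Dnajc11, which belongs to the cristae-organising complex, was higher in B-like cells, at 72.2 ± 20.8 CPM against 40.6 ± 13.5 CPM (SD, n = 6; 0.68, SE 0.16, edgeR adjusted p = 0.00013). Dnajc30 also passed as higher (0.87, SE 0.31), but standard 5′ replicate 2 went the other way. Hspd1, Hspe1 and Hspa9 did not pass (0.08, 0.04 and -0.17).

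The members of the endoplasmic reticulum split. Hsp90b1, the HSP90 of that compartment (GRP94), had 493, 464, 746, 519, 605 and 546 CPM in B-like cells and 309, 294, 328, 353, 299 and 392 CPM in T-like cells in the same order of libraries. Hspa5 had 492, 473, 489, 418, 329 and 471 CPM in B-like cells and 283, 248, 353, 257, 189 and 276 CPM in T-like cells. Both genes were higher in B-like cells of all 6 libraries, by 0.69 (SE 0.07, edgeR adjusted p = 1.7e-14) and 0.78 (SE 0.07, edgeR adjusted p = 7.9e-17). The log2 ratio of Hsp90b1 was 1.18 in standard 5′ replicate 1 and 1.01 in modified 5′ replicate 1, and 0.48 to 0.67 in the other libraries. Immunoglobulin genes took 6.54% and 5.48% of the B-like counts of those 2 libraries and 2.35% to 2.91% in the others. No plasma-like cluster was named in any replicate 1 library, and the part of such cells in the difference was not tested. Dnajb11, a J-domain partner of Hspa5, was higher by 0.38 (SE 0.12) in 5 of 6 libraries, the exception being standard 5′ replicate 1, and lost the call without 3′ replicate 1 and with DESeq2.

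Dnajc3 and Dnajc1, J-domain proteins of the same compartment, went the other way. Dnajc3, also known as an inhibitor of the kinase PERK, had 91.6, 59.5, 83.6, 98.0, 107 and 87.0 CPM in B-like cells and 165, 154, 210, 248, 220 and 220 CPM in T-like cells (-1.20, SE 0.10, edgeR adjusted p = 1.2e-19). Dnajc1 had 34.8 ± 9.26 CPM in B-like and 83.7 ± 17.6 CPM in T-like cells (SD, n = 6; -1.31, SE 0.15, edgeR adjusted p = 3.1e-13). T-like cells were above B-like cells in all 6 libraries for both. Of the 8 members tested of the 9 listed for this compartment, 3 were higher and 2 lower in B-like cells, against 21.4% and 18.9% of all genes. Dnajb14, which is not on that list, was also higher (0.32, SE 0.12, edgeR adjusted p = 0.019), in 4 of 6 libraries, a call kept under 4 of 9 alternatives.

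Among cytosolic J-domain proteins, Dnajc7, which joins HSP70 to HSP90, was higher in B-like cells, at 335 ± 47.0 CPM against 157 ± 21.1 CPM (SD, n = 6; 1.00, SE 0.09, edgeR adjusted p = 3.8e-19). Dnaja1, Dnaja2 and Dnajb1, J-domain partners of HSP70, were lower in B-like cells in all 6 libraries, whereas Dnajb6 did not pass. Dnaja1 stood at 716 ± 192 CPM against 946 ± 237 CPM (-0.37, SE 0.07), Dnaja2 at 150 ± 24.3 CPM against 193 ± 30.2 CPM (-0.33, SE 0.09), and Dnajb1 at 115 ± 32.7 CPM against 171 ± 49.4 CPM (SD, n = 6; -0.48, SE 0.10), with edgeR adjusted p of 1.8e-06, 0.0014 and 2.9e-05. Hspa8 itself was lower by 0.15 (SE 0.06), a call lost without 3′ replicate 2 or either modified 5′ library, with DESeq2, at Leiden resolution 1.0 and without the low-count filter. Hspa4, an exchange factor for HSP70, was higher in B-like cells of all 6 libraries by 0.33 (SE 0.10) and lost its call without 3′ replicate 1 and with DESeq2.

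Of the 7 CCT genes matched by name and tested, 3 were lower in B-like cells and 0 higher, where 18.9% of all genes were lower and 21.4% higher. The further subunit Tcp1 did not pass (-0.05, SE 0.10). Cct2 stood at 263 ± 32.8 CPM against 319 ± 40.6 CPM (SD, n = 6; -0.26, SE 0.07, edgeR adjusted p = 0.0025) and Cct7 at 213 ± 59.1 CPM against 259 ± 56.8 CPM (SD, n = 6; -0.28, SE 0.08, edgeR adjusted p = 0.0043), both lower in 6 of 6 libraries, though Cct7 did not pass with DESeq2. Cct6a was lower by 0.21 (SE 0.08) in 5 of 6 libraries and lost its call without either replicate 2 library of the 5′ kit, with DESeq2 and without the low-count filter. Hspb11, a subunit of the intraflagellar transport machinery despite its heat shock name, was lower in B-like cells by 0.65 (SE 0.16, edgeR adjusted p = 0.00041). In all, 1601 of 9400 genes (17.0%) were above in B-like cells of all 6 libraries and 15.5% were above in T-like cells of all 6.

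**Figure D4:**
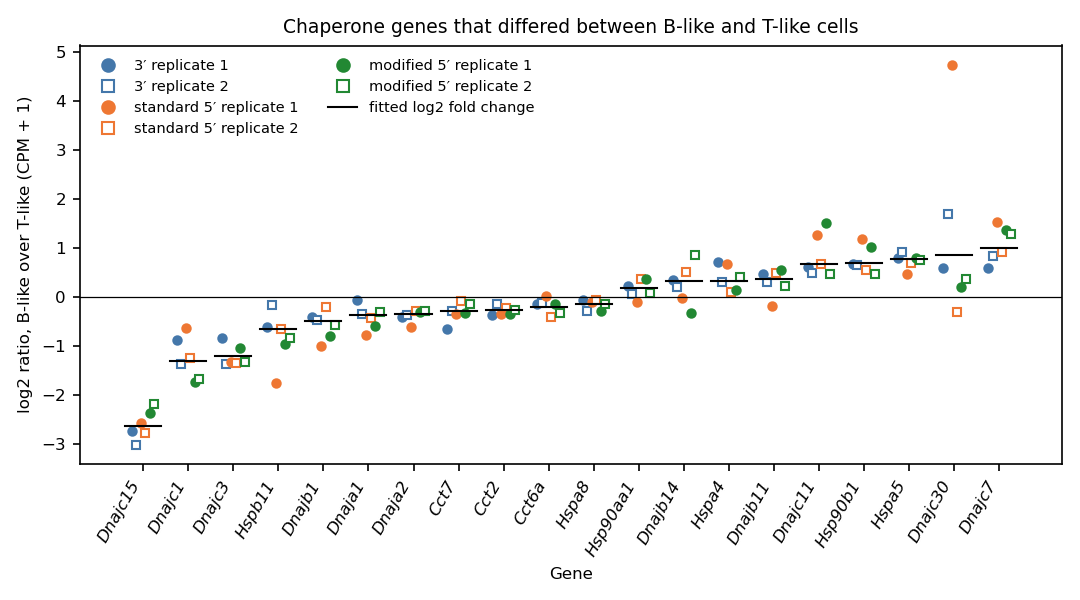
Log2 ratio of B-like over T-like cells (y axis, CPM plus 1) in each library for the 20 members that passed the test, with circles for replicate 1, squares for replicate 2, 1 colour per protocol and a black bar at the fitted log2 fold change. Dnajc15 lies lowest at -2.62 and Dnajc7 highest at 1.00, and the wide spread of Dnajc30 comes from standard 5′ replicate 1.

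Whether a protocol difference itself depended on the class was tested with an interaction term. For standard 5′ against 3′, 0 of 51 members and 9 of 9400 genes (0.0957%) passed, and for modified against standard 5′ 0 members and 0 genes (0%) passed in edgeR's test. At an unadjusted p of 0.05, 2 members passed in each, and DESeq2 was not run on these terms. The lowest adjusted p for a member was 0.22, for Hspa4l.

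The co-chaperones and regulators that work with these proteins were followed as a list of 50 genes, of which 48 were tested between libraries. In standard 5′ against 3′, 12 were higher and 2 lower (17 and 2 with the replicate block), with a median log2 fold change of 0.45. Over all genes 12.5% were higher and 10.8% lower (19.3% and 16.5% with the block), and the median was -0.01. Pdia3, a disulfide isomerase that works with calreticulin, had 101 and 101 CPM in the 3′ pair and 363 and 346 CPM in the standard 5′ pair (1.80, SE 0.21, edgeR adjusted p = 0.0013). Hspbp1, an HSP70 exchange factor, had 26.4 and 36.4 CPM against 70.7 and 81.9 CPM (1.30, SE 0.27), and Stub1, the ubiquitin ligase CHIP, had 58.2 and 84.3 CPM against 166 and 160 CPM (1.18, SE 0.23). Hsf2, a heat shock transcription factor, was lower, with 53.7 and 44.5 CPM against 12.3 and 15.2 CPM (-1.75, SE 0.29). Leaving out standard 5′ replicate 2 ended the calls of Hspbp1, Stub1 and Hsf2 but not that of Pdia3, and leaving out 3′ replicate 1 also ended that of Hspbp1.

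In B-like against T-like cells 15 of 47 listed co-chaperones and regulators were higher and 4 lower, against 21.4% and 18.9% of all genes, with a median log2 fold change of 0.05 beside 0.04 over all genes. Pdia4, another disulfide isomerase, was higher by 1.86 (SE 0.11), Xbp1, a transcription factor of the unfolded protein response, by 1.66 (SE 0.21), Sdf2l1, a partner of Hspa5, by 1.33 (SE 0.18) and Hsf2 by 1.12 (SE 0.21). In modified against standard 5′, 0 of the 48 passed. In replicate 2 against 1 only Sdf2l1 passed, at 39.8 and 83.0 CPM in the 3′ pair, 55.3 and 122 CPM in the standard 5′ pair, and 83.0 and 98.0 CPM in modified 5′ replicates 1 and 2 (0.76, SE 0.18, edgeR adjusted p = 0.013), but it did not pass without 3′ replicate 1 or 3′ replicate 2, with DESeq2 or in T-like cells only. In B-like cells only its sign turned, to -0.17.

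Small clusters named plasma-like from Jchain and other markers were found in the 3 replicate 2 libraries, where the 3′ library gave 31 such cells, the standard 5′ library 19 and the modified 5′ library 39. Under 50 cells a cluster, no test was made, and these values are CPM of the class without TMM scaling. The 9 endoplasmic reticulum members together had 7633, 5608 and 4847 CPM there, beside 1318, 1137 and 1190 CPM in the B-like cells of the same libraries. Hsp90b1 had 4657, 3402 and 2676 CPM, beside 504, 457 and 495 CPM in B-like cells. Hspa5 had 1563, 1197 and 959 CPM, beside 514, 369 and 427 CPM. Dnajc3, which was lower in B-like than in T-like cells, had 749, 445 and 581 CPM in plasma-like cells, beside 64.7, 86.4 and 78.9 CPM in B-like cells.

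The CCT genes, Hsp90ab1 and Hspe1 read low in the same plasma-like clusters, and Hspe1 is the only mitochondrial member given here. The CCT genes together had 642, 359 and 593 CPM, beside 1675, 1694 and 1733 CPM in B-like cells. Hsp90ab1 had 385, 496 and 581 CPM, beside 2617, 3082 and 2868 CPM, and Hspe1 had 53.5, 51.3 and 126 CPM from 5, 3 and 10 counts, beside 526, 619 and 710 CPM. Immunoglobulin genes and Jchain took 63.1%, 67.0% and 57.3% of the counts of these clusters, which lowers every other share. With those genes left out of the total, the CCT sum was 1742, 1089 and 1388 CPM in plasma-like cells and 1716, 1745 and 1780 CPM in B-like cells, and the endoplasmic reticulum sum was 20695.5, 17005 and 11339 CPM against 1350, 1171 and 1222.5 CPM. Hspe1 was then still lower, at 145, 156 and 295 CPM against 538, 637 and 729 CPM. Hsp90ab1 was not recalculated on this scale, so its low values above include the lowering by immunoglobulin. The endoplasmic reticulum members thus stood high on either scale, and the CCT genes stood low mainly on the scale that includes immunoglobulin.

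The clusters that took the name erythroid-like were not of 1 kind. In replicate 1 of each protocol 6 of the 10 leading genes were erythroid markers, and the CCT genes summed to 924, 829 and 522 CPM in 3′, standard 5′ and modified 5′. All members together summed to 6345, 5095 and 3611 CPM there, as CPM of the class without TMM scaling. Haemoglobin genes were among the leading genes of these clusters, and their counts lower every other share. In 3′ replicate 2 only 1 of the 10 leading genes was such a marker (Car1) and in standard 5′ replicate 2 there were 3, the others being largely genes of dividing cells such as Top2a, Birc5 and Ube2c. Genes of dividing cells were also among the leading 10 in replicate 1, such as Mki67 in 3′ and Ube2c in standard and modified 5′. The CCT genes summed to 3313 and 2694 CPM in the 3′ and standard 5′ replicate 2 clusters, and all members together to 19065 and 16130 CPM. Since their leading genes differ, replicates are not compared in this class, and at Leiden resolution 0.5 modified 5′ replicate 2 had no cluster of this name, but an unnamed cluster of 83 cells led by Top2a and Stmn1.

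**Figure D5:**
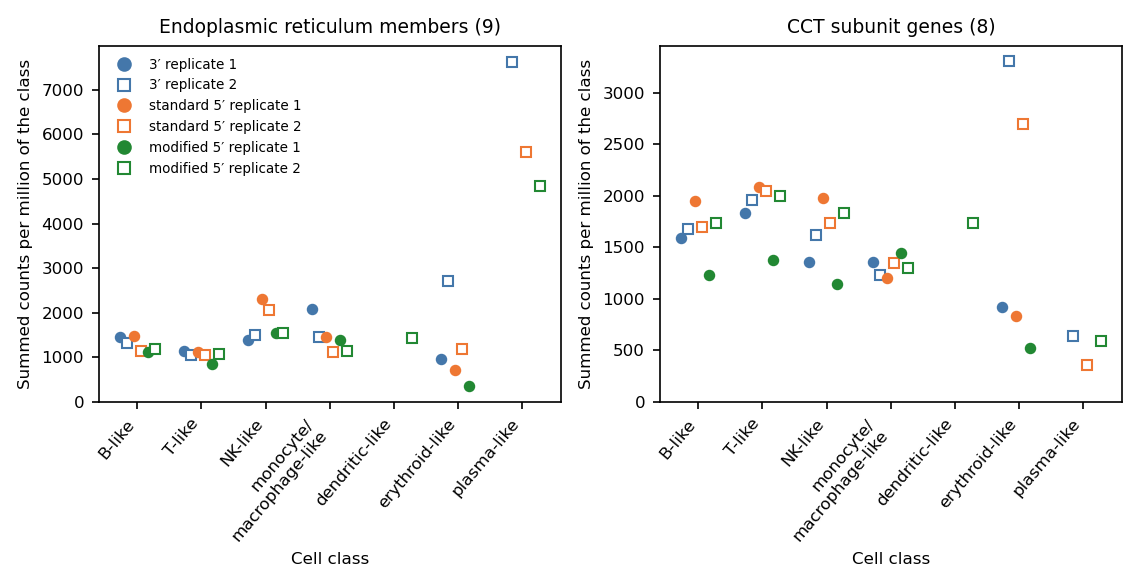
Summed CPM of the 9 endoplasmic reticulum members (left) and the 8 CCT genes (right) in each cell class and library, both y axes linear from 0, with circles for replicate 1, squares for replicate 2 and 1 colour per protocol. Plasma-like clusters, present in replicate 2 only, stand at 4847 to 7633 CPM on the left and at 359 to 642 CPM on the right, and the replicate 2 points under erythroid-like are clusters led largely by genes of dividing cells.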

How the data were processed

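Single-cell counts were measured in 6 libraries labelled as mouse spleen, 2 per protocol. The deposited values are raw counts per gene symbol and barcode, whole numbers with no normalization. The build mm10 and, for replicate 2, Seurat are named per the submitters' processing notes. Not given in the sources used here: aligner, annotation, use of strand, molecular identifiers and cell calling. Overlapping and antisense genes may therefore share counts. The chaperone genes and the lists were chosen with earlier results of these data known.

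Barcodes with 200 or more genes and no more than 20% of counts from mitochondrial genes were kept. Scrublet marked 2 to 14 doublets a library, which were left out of the cell classes but not of the library sums. With so few marks, many doublets may remain, and their number was not estimated. Each library was clustered alone with scanpy 1.11.5 (2000 variable genes without chaperone, receptor variable and haemoglobin genes, 30 components, 15 neighbours, Leiden resolution 0.5). Clusters were named X-like where at least 3 markers of a type stood among their top 50 genes and no other type had more among the top 10, and clusters of very low counts with no such marker in the top 10 stayed unnamed.

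Counts summed per library, or per library and class, were tested with edgeR 4.0.16 under R 4.3.3 (quasi-likelihood, TMM, filterByExpr, Benjamini-Hochberg over all genes, adjusted p of 0.05). Named are a preset set of members, whatever their test, and up to 8 called members each way by size, at 20 CPM or more with groups that do not overlap, and up to 4 co-chaperones a comparison. Other members, and Tcp1, are named to complete a count. Ratios within a replicate are log2 of CPM plus 1. Same-numbered libraries deviated together (correlations 0.604, 0.498 and 0.409 over 7063 genes), so the ratios within a replicate and the replicate block pair libraries by number. The main fits of standard 5′ against 3′ and of modified against standard 5′ do not use this pairing. Standard errors and p-values of these comparisons come from those fits unless the block is named. The search for TTCNNGAA and the sums without immunoglobulin were added after the data were seen. Shared words are 31-base words of GENCODE transcripts. The tests were run on simulated data first. Alternatives were DESeq2 1.42.0, no filter on low counts, all barcodes, no haemoglobin genes, B-like or T-like cells only, Leiden resolution 1.0, the replicate block and each library left out. Intervals cover counting error only.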

Additional observations from a re-analysis of the deposited data

Results flagged for a closer look

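Over the 33 members with enough counts, the log2 ratio of B-like over T-like cells was compared among the 6 libraries, and in 5 members 1 library stood apart from the rest. Chance flags about 1 in 20. In 4 of them that library was standard 5′ replicate 1, the shallowest. Dnaja2 had -0.614 there, with -0.39 to -0.27 in the others. Dnajc9 had -0.679, with 0.09 to 0.30 in the others. Hspa14 had -1.76, with -0.27 to 0.44 in the others, and Hspa9 had -1.47, with -0.27 to 0.07 in the others. The fifth was Hspe1, with 0.244 in 3′ replicate 1 and -0.05 to 0.03 in the others.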

How the results depend on the processing

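For standard 5′ against 3′ (5 members higher and 2 lower, 1443 and 1246 genes), the replicate block gave 14 and 4 members and 2227 and 1900 genes. DESeq2 gave 1 member lower and 939 and 574 genes. T-like cells alone gave 3 and 4 members and 922 genes higher. B-like cells alone, and all barcodes, each gave 1 member lower. Leaving out 1 library gave 1 to 5 members higher and 0 to 3 lower, and 174 to 1560 genes higher and 47 to 1203 lower. The fewest calls came without standard 5′ replicate 2.

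For modified against standard 5′ (0 genes), genes higher numbered 3 in B-like cells, 2 in T-like cells, 1 with DESeq2, 38 without the low-count filter and 9 with the replicate block. Genes lower numbered 1 in T-like cells, 27 without the filter and 12 with the block. Leaving out 1 library gave 0 to 1 higher. No member passed in any of these.

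For replicate 2 against 1 (75 genes higher and 338 lower), genes higher numbered 1 in B-like cells, 8 in T-like cells, 6 with DESeq2, 48 without haemoglobin genes and 158 without the filter. Genes lower numbered 14, 5 and 162 in the first 3 of these settings. All barcodes gave 1 member lower. Leaving out 1 library gave 6 to 222 genes higher, 119 to 459 lower and 0 to 4 members lower. Sdf2l1 turned to -0.17 in B-like cells.

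For B-like against T-like cells DESeq2 gave 5 members higher, and leaving out 1 library 5 to 10 higher and 9 to 13 lower, the fewest higher without 3′ replicate 1. For the class dependence of the standard 5′ difference, Leiden resolution 1.0 gave 1 gene higher and no filter 1 (2 in the fit reported). For that of the modified protocol, resolution 1.0 gave 1 gene higher and 3 lower. Leaving out libraries was not run on these terms. The cause of these shifts was not tested. Depth limits standard 5′ replicate 1 most.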

Other observations

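At the finer clustering, a B-like cluster of 239 cells in 3′ replicate 1 had Hsp90b1 and Hspa5 among its 10 leading genes by fold, with Ighm, Mzb1 and Calr. This is a description of 1 cluster in 1 library, and no test was made.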
